A study of Macaca fascicularis with 2 samples.

Results

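Early meiotic prophase germ cells without FIGLA were cells of the fetal monkey ovary that carried transcripts of the synaptonemal complex. They had no detected transcript of FIGLA, the transcription factor that switches on oocyte genes. A general germ cell marker such as DDX4 or DAZL was not required. They were chosen from the measured counts. A cell was taken when it had at least 1000 UMIs (unique molecular identifiers, which count captured RNA molecules), when SYCE3, SYCP1, SYCP2 and SYCP3 together made up at least 20 of every 10000 UMIs, when FIGLA had 0 UMIs, and when the oocyte genes GDF9, ZAR1 and ASTL together stayed below 5 per 10000 UMIs. This gave 1229 early prophase cells, which were 6.85% of the 17943 cells with at least 1000 UMIs (exact binomial 95% interval 6.48 to 7.23) and came from 20967 cells in all. The 8 genes of this rule are given below as a description only.

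In meiotic prophase, homologous chromosomes build axial cores, break and exchange DNA, and are zipped together by the synaptonemal complex. SYCP3 and SYCP2 belong to the axial cores, SYCP1 forms the transverse filaments, and SYCE3 is part of the central element. SPO11 makes the programmed DNA breaks, PRDM9 marks where they fall, and DMC1 carries out the strand exchange that repairs them. In female primates germ cells enter this phase asynchronously before birth and later arrest and form primordial follicles.

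The ovaries came from fetuses of Macaca fascicularis, the cynomolgus monkey, at embryonic day 84 and embryonic day 116, with 1 fetus at each stage and both ovaries of a fetus dissociated together. Whole ovaries were sequenced without a sort or treatment by a droplet method that counts the 3′ ends of transcripts. Cell barcodes ended in 1 or 2, and because no label ties an ending to a stage, the table was treated as 1 pooled sample and the endings are given side by side as libraries of unknown stage. Cells of a library are not replicates, so no test was made, and every interval below is a 95% interval that covers counting error only.

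The early prophase cells held 6205040 UMIs, with a median of 2400 UMIs and 1278 detected genes per cell. Of them, 983 had barcodes ending in 1, which was 11.4% of the cells with that ending, and 246 had barcodes ending in 2, which was 2.65%. The cells ending in 2 were deeper, with a median of 4091.5 UMIs against 2188. Mitochondrial transcripts took a median of 12.4% of UMIs, and 805 cells were at 10% or more. The 2 libraries shared 27 barcode sequences, but 0 early prophase cells carried such a barcode.

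Other groups of cells were set beside the early prophase cells, each chosen by its own genes. Premeiotic cells (282 cells, median 8098.5 UMIs) had a UMI of DDX4 or DAZL and at least 5 per 10000 UMIs of ZGLP1, STRA8 and REC8, no FIGLA, and a synaptonemal sum below the limit of 20. FIGLA-positive meiotic cells (348 cells, median 11078.5 UMIs) met the same synaptonemal and oocyte limits with 1 or more FIGLA UMIs. NANOG/TFAP2C germ cells (145 cells), oocytes rich in GDF9, ZAR1 and ASTL (287 cells) and somatic cells without DDX4 or DAZL and with a synaptonemal sum under 5 (10916 cells, median 4465.5 UMIs) gave the levels at the ends of the germ line and the background of free RNA. Of the NANOG/TFAP2C germ cells 143 had barcodes ending in 1 and 2 in 2, and of the oocytes 2 and 285. Their levels therefore cannot be told apart from a difference between libraries. To give a level, the UMIs of a gene were added over the cells of a group and scaled to CPM, the usual scale for the share of a gene in all UMIs. Since counts came from transcript ends, they are compared for a gene between groups and not between genes.

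The 4 synaptonemal genes that chose the cells were unevenly present in them. SYCP3 had a UMI in 96.4% of early prophase cells, SYCE3 in 93.2%, SYCP2 in 79.7% and SYCP1 in 58.0%, and 561 cells had UMIs of all 4. Their sum ran from 20 to 209 per 10000 UMIs with a median of 53.7, and its middle cells lay between 35.4 and 79.8 (25th and 75th percentiles). In UMIs the sum was small, with a median of 14, and in 105 cells it rested on 2 to 4 UMIs. Those cells were shallow (median 1250 UMIs), and 48.6% of them had a UMI of DDX4 or DAZL, the germ cell RNA helicase and RNA-binding protein that the rule did not use, compared with 76.1% of the cells with 5 or more.

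**Figure D1:**
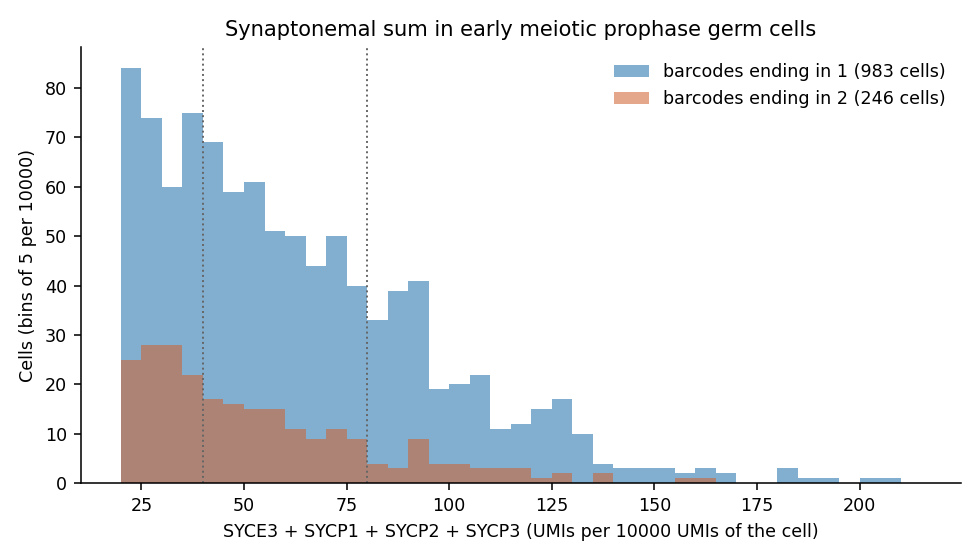
Number of early prophase cells (vertical axis, bins of 5 per 10000) by the summed share of SYCE3, SYCP1, SYCP2 and SYCP3 (horizontal axis, UMIs per 10000 UMIs of the cell), for barcodes ending in 1 (blue) and in 2 (orange). Dotted lines mark 40 and 80, the limits of the 3 bands used further on, and the counts are highest near the selection limit of 20 and thin out towards the highest value of 209.

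Cells lay on both sides of each limit of the rule. Just below the synaptonemal limit, at 18 to 20 per 10000, lay 95 cells, and just above it, at 20 to 22, lay 44. SPO11 was at 7.92 CPM (2.16 to 20.3) just below, from 4 UMIs, and 4.21 CPM (0.107 to 23.4) just above, from 1 UMI, and RAD51AP2 at 370 and 450 CPM. A UMI of DDX4 or DAZL was found in 61.1% of the cells just below and 65.9% of those just above. At the other limit, 25 early prophase cells had the oocyte genes at 3 to 5 per 10000, and 42 cells were left out because they reached 5 with FIGLA at 0. The 42 cells left out were shallow, with a median of 1500.5 UMIs.

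Whether a cell showed 0 FIGLA depended on its depth. Of the 1577 cells that met the other limits, 77.9% had no FIGLA UMI. That share was 91.6% (89.0 to 93.7) at 1000 to 2000 UMIs, 84.6% (81.0 to 87.8) at 2000 to 5000, 138 of 184 cells (68.1 to 81.1) at 5000 to 10000, and 50.8% (45.6 to 56.0) at 10000 or more. At 10000 or more UMIs it was 63.4% for barcodes ending in 1 and 40.1% for those ending in 2. At that depth 190 early prophase cells were found. In the FIGLA-positive cells, FIGLA was at 285 CPM (269 to 301).

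Markers of meiotic prophase that the rule did not use were present as well. SPO11 was at 102 CPM (93.8 to 110) in early prophase cells, with 80.7 in barcodes ending in 1 and 141 in those ending in 2. It was at 0.996 CPM in premeiotic cells, where it rested on 3 UMIs, and at 0 UMIs in NANOG/TFAP2C germ cells. DMC1 was at 66.9 CPM (60.6 to 73.6), with 81.9 and 38.3 in the endings, against 5.64 CPM (3.29 to 9.03) in premeiotic cells and 0 UMIs in oocytes. Somatic cells gave the level of free RNA, 0.854 CPM for SPO11 and 0.334 CPM for DMC1. After every cell was thinned to 1000 UMIs, a UMI of SPO11 remained in 8.87% of early prophase cells and 0.156% of somatic cells, and without thinning in 25.1% of early prophase cells.

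A UMI of DDX4 or DAZL was found in 906 early prophase cells (73.7%). Of all cells with at least 1000 UMIs, 68.0% had 0 UMIs of both genes. Among early prophase cells the share with a UMI followed depth, from 53.2% at 1000 to 2000 UMIs to 97.0% at 5000 or more. DDX4 was at 430 CPM (414 to 447) and DAZL at 210 CPM (199 to 222), and both were at similar levels in the 2 endings, 414 and 461 for DDX4 and 202 and 226 for DAZL.

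Many genes of chromosome pairing and recombination were higher in early prophase cells than in premeiotic cells, with shares that differed between the lists. A gene was counted as higher or lower when its CPM differed 2-fold or more after 10 CPM was added to both groups, among genes at 10 CPM or more in either group, and genes used to choose a group were left out. Of 8687 genes compared, 588 were higher (6.77%) and 401 lower (4.62%) in early prophase cells, and the median log2 ratio was 0.01. These shares are the background for each list count against premeiotic cells. In 6 lists covering the chromosome axis, cohesin, break formation, strand exchange, crossovers and telomeres, 35 of 67 compared genes were higher and 0 lower, and in a further list of break signalling 2 of 12 were higher and 0 lower.

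RAD51AP2, a gene of the strand exchange list, led this comparison. It was at 2776 CPM (2735 to 2818) in early prophase cells, with 3088 and 2184 CPM in the endings, and at 26.2 CPM (20.8 to 32.7) in premeiotic cells, a ratio of 106 (84.9 to 134). Premeiotic cells had 32.0 and 19.1 CPM in the endings. In the 17 compared genes of strand exchange, 8 were higher and the median log2 ratio was 0.74. MEIOB, a single-strand DNA-binding protein that works with SPATA22, was at 415 CPM against 52.4, a ratio of 7.91 (6.73 to 9.35). TEX15, needed for meiotic recombination and piRNA silencing, was at 277 CPM against 28.9.

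Break formation showed the highest share, with 8 of 10 compared genes higher, 0 lower and a median log2 ratio of 1.47. SPO11 was 102 times its premeiotic level, with an interval of 34.7 to 496 because only 3 premeiotic UMIs were seen. PRDM9 was at 38.0 CPM (33.3 to 43.2) in early prophase cells, with 47.7 and 19.6 in the endings, and had 1 UMI in premeiotic cells, a ratio of 115 (20.4 to 4546). ZCWPW1, which reads the histone marks that PRDM9 writes, was at 1293 CPM against 314, a ratio of 4.11 (3.85 to 4.40). Lesser ratios were seen for ANKRD31 (2.98) and REC114 (1.97), partners in the machinery that activates SPO11, and REC114 did not reach the 2-fold limit.

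Of the 6 compared genes of the synaptonemal complex and chromosome axis that the rule did not use, 4 were higher, and the median log2 ratio was 2.30. C14orf39, the older symbol of the central element gene SIX6OS1, was at 444 CPM (427 to 461) against 39.2 (32.4 to 46.9), a ratio of 11.3. TEX12, another central element gene, was at 583 CPM against 70.7, a ratio of 8.24 (7.18 to 9.51). HORMAD2, which marks unpaired axes, was at 74.5 CPM against 1.66, a ratio of 44.9 (19.1 to 139), and its relative HORMAD1 was at 443 CPM against 126. SYCE1 and SYCE2 had log2 ratios of 0.98 and 0.95 and lay just under the limit.

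Telomere attachment and chromosome movement had 5 of 8 compared genes higher and a median log2 ratio of 1.67. SPDYA, which activates CDK2 at telomeres, was at 440 CPM in each ending and at 13.3 CPM (9.48 to 18.1) in premeiotic cells, a ratio of 33.1 (24.3 to 46.5). The 3 genes of the complex that ties telomeres to the nuclear envelope were all higher. MAJIN had a ratio of 8.97, TERB2 of 5.79 and TERB1 of 4.02. CDK2, which every dividing cell uses, had a log2 ratio of 0.30.

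Among crossover genes 6 of 13 compared were higher, 0 were lower and the median log2 ratio was 0.77. CNTD1, which helps to designate crossovers, was at 160 CPM (150 to 170), with 184 and 115 in the endings, against 6.31 CPM in premeiotic cells, a ratio of 25.4 (16.2 to 42.4). SHOC1, HFM1 and MSH4, which act on crossover intermediates, had ratios of 14.2, 4.26 and 10.8. MLH3, a late crossover factor, had a log2 ratio of -0.05.

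Cohesin genes differed among themselves. Of 13 compared genes 4 were higher and 0 lower. RAD21L1, a meiotic kleisin subunit, was at 68.8 CPM against 10.3, a ratio of 6.69 (4.64 to 9.97), and SMC1B, the meiotic SMC subunit, at 1985 CPM against 806. STAG3, another meiotic subunit, was at 240 CPM against 178, and RAD21, the kleisin of dividing cells, a log2 ratio of -0.83. REC8, the remaining meiotic kleisin, was at 53.8 CPM (48.2 to 59.9) against 284 CPM (266 to 304), but it helped to choose the premeiotic cells and is given without weight. The higher genes of break signalling were TRIP13 and RAD9B, with ratios of 2.24 and 2.28, and the median log2 ratio of that list was 0.23.

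**Figure D2:**
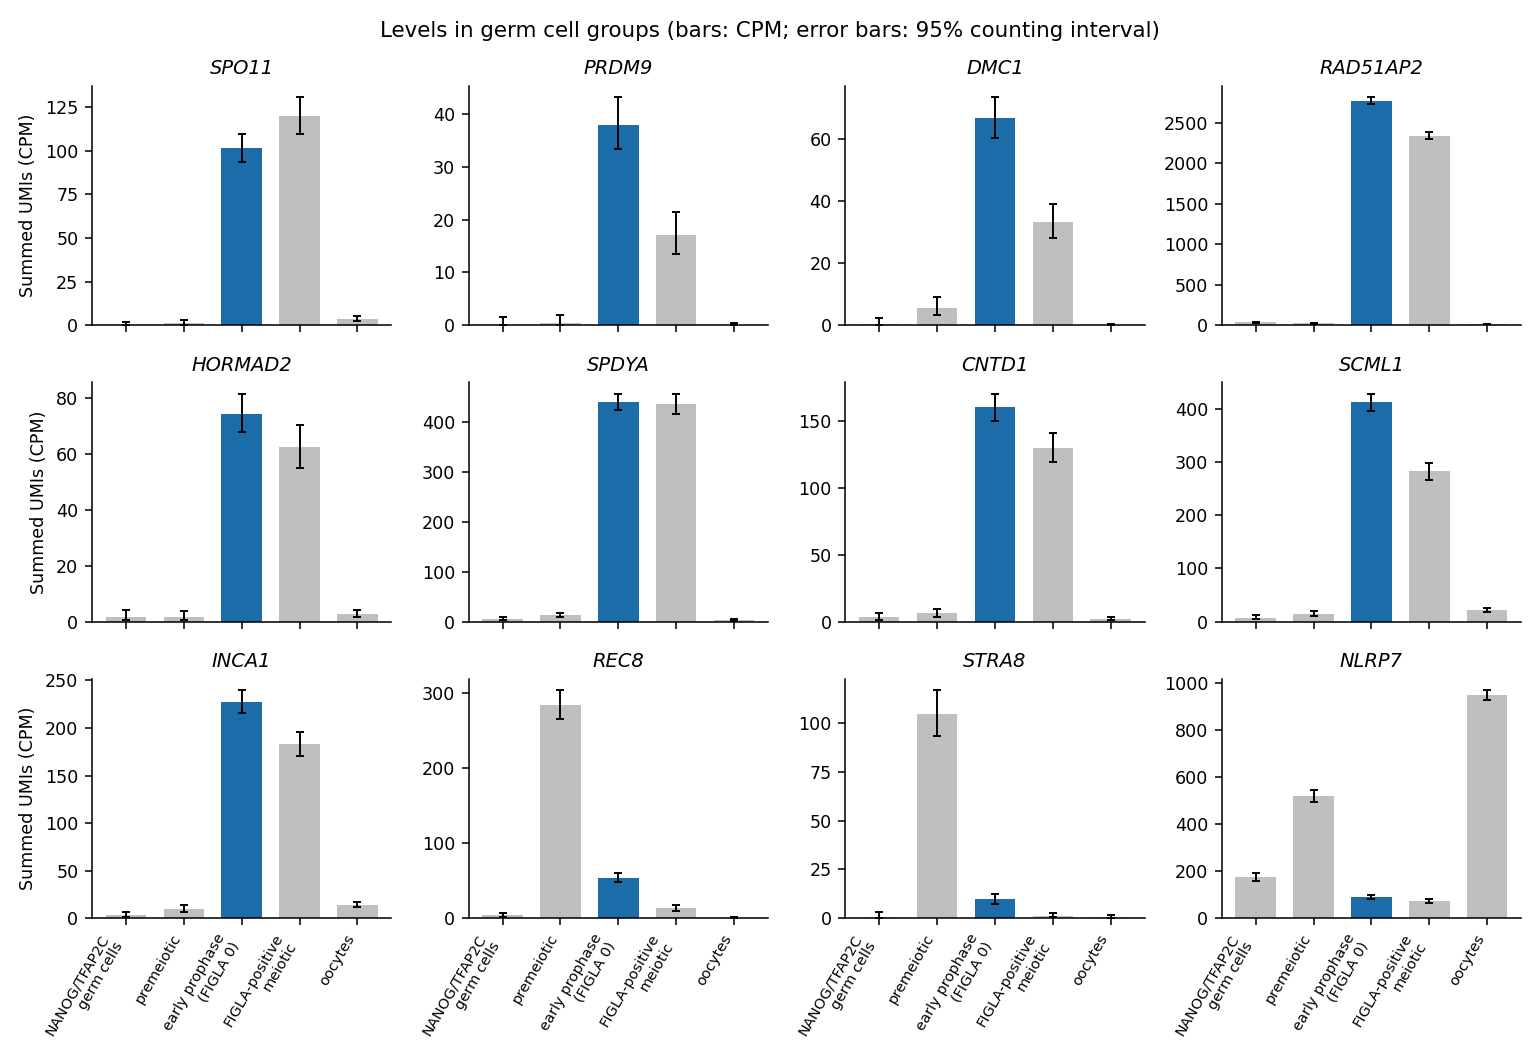
Summed level (vertical axes, CPM, each from 0) of 12 genes in NANOG/TFAP2C germ cells, premeiotic cells, early prophase cells (blue), FIGLA-positive meiotic cells and oocytes, with error bars for the 95% counting interval. Nearly all NANOG/TFAP2C germ cells had barcodes ending in 1 and nearly all oocytes barcodes ending in 2. SPO11, PRDM9, DMC1, RAD51AP2, HORMAD2, SPDYA, CNTD1, SCML1 and INCA1 were high in the 2 meiotic groups and near 0 elsewhere, whereas REC8 and STRA8, which helped to choose the premeiotic cells, were highest there and NLRP7 was highest in premeiotic cells and oocytes.

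Transcription and chromatin factors were higher together with the recombination genes. Of 22 compared, 11 were higher and 0 lower, with a median log2 ratio of 0.98. SCML1, an X-linked polycomb-like protein, was at 412 CPM (396 to 428), with 464 and 312 in the endings, against 15.3 CPM (11.2 to 20.4) in premeiotic cells. Its ratio was 27.0 (20.2 to 37.0), while somatic cells had 44.4 CPM. DMRTC2 had a ratio of 19.5 (10.1 to 42.9) and PHF7, a histone reader, 9.15 (6.17 to 14.2). MYBL1, a master transcription factor of male meiosis, was at 78.8 CPM against 14.9, and BRDT, the testis bromodomain protein, at 210 CPM against 83.3.

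In a list of cancer-testis genes, 6 of 9 compared were higher and 0 lower, with a median log2 ratio of 1.73. INCA1, an inhibitor of a cyclin A complex, was at 228 CPM (216 to 240) against 9.96, a ratio of 22.9 (15.9 to 34.0). WDR87 had a ratio of 12.4 (8.87 to 17.8). Some X-linked members of this kind were found in 1 ending almost alone. XAGE3 had 440 UMIs in early prophase cells of ending 1 (108 CPM) and 9 UMIs in those of ending 2, and since premeiotic cells had 0 UMIs, it was at least 72.7 times higher against a floor of 3 counts in that group. PAGE4 was at 97.7 and 0.467 CPM in the endings and had 3 premeiotic UMIs, a ratio of 64.4 (21.9 to 314). PAGE1 was at 673 and 292 CPM against 93.7 and 55.9 CPM. Outside the lists, C8orf88, FMR1NB and FAM9C were also among the genes with the highest ratios, at 17.3, 20.3 and 12.5.

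Germ cell RNA-binding and piRNA genes were mixed, with 7 of 23 compared genes higher and 1 lower. ASZ1, TDRD9 and TDRD5, which take part in piRNA silencing of transposons, had ratios of 5.25, 4.71 and 4.96. DDX25, an RNA helicase of germ cells, had a ratio of 8.01 (5.31 to 12.7) and BOLL, a relative of DAZL, 4.06 (2.88 to 5.87). TSNAX was the lower gene, at 76.2 CPM against 176. MAEL had a ratio of 1.44 (1.27 to 1.63), and TDRD1 of 1.06 (0.870 to 1.29).

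Some genes of meiotic entry and of dividing germ cells were lower in early prophase cells. Of the 8 compared genes of meiotic entry, 4 were lower and 1 was higher, with a median log2 ratio of -0.97. RFX6, a transcription factor, was at 12.3 and 46.2 CPM in the endings against 80.4 and 324 CPM, so that premeiotic cells had 7.92 times as much (6.60 to 9.55) over both endings. DMRT1, which acts before meiosis, was 6.14 times higher and MSX1, a target of BMP signalling, 3.22 times higher in premeiotic cells. MEIOC, which stabilises the meiotic programme after entry, went the other way, at 345 CPM against 82.0. Of 6 compared genes of primordial germ cells, KIT and DPPA4 were lower, with log2 ratios of -1.71 and -1.18, beside 4.62% of all genes compared.

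Genes of S phase and mitosis were divided, with 6 of 29 compared lower and 2 higher, beside 4.62% and 6.77% of all genes compared. CENPF, a kinetochore protein of late cell cycle, was at 141 CPM against 468, MCM4, a subunit of the replication helicase, at 79.9 against 266, and CCNA2 at 16.6 against 73.3. TOP2A, which untangles DNA, was at 1141 CPM (1115 to 1168) against 546 (520 to 573), a ratio of 2.09 that was 2.23 and 1.80 in the endings. CCNE2, a cyclin of the start of S phase, had a ratio of 5.49 (4.38 to 6.95).

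The genes with the lowest ratios were TUBB2B, ASB9, SKAP2, CRYGC, RFX6, NLRP7, CKB, CALY, CYP26A1 and GMPR. TUBB2B, a tubulin, was at 46.4 CPM (41.2 to 52.1) in early prophase cells and 389 CPM (367 to 412) in premeiotic cells, which had 7.34 and 8.72 times as much in the endings. CYP26A1, the enzyme that breaks down retinoic acid, was at 46.6 CPM against 236, and NLRP7, an oocyte-enriched gene, at 89.9 CPM against 518. Among oocyte genes as a list, 1 of 6 compared was higher (BRDT) and 1 lower (NLRP7), and 5 of the 25 in the table, BMP15, NLRP13, DPPA3, OOSP2 and MOS, had 0 UMIs in early prophase cells.

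The gene HBB, a globin chain of red blood cells, also stood among the genes with the highest ratios, at 1544 CPM against 142. Of its UMIs in early prophase cells, 77.2% lay in 6 cells in which HBB took 1% or more of all UMIs, and the other early prophase cells had 355 CPM. HBB was at 20928 CPM in somatic cells. Stromal markers moved with the group too. Their 15 genes summed to 996 CPM in early prophase cells (1227 and 558 in the endings), 525 CPM in premeiotic cells (611 and 420), 667 CPM in FIGLA-positive cells (989 and 504) and 10243 CPM in somatic cells, with 2 of 13 compared genes, COL1A1 and OGN, higher against premeiotic cells. Granulosa markers summed to 183 against 209 CPM, endothelial markers to 186 against 199 CPM and immune markers to 28.5 against 11.3 CPM. Among defining markers, PTPRC had 2 UMIs and CD3E 0 in early prophase cells. In 455 early prophase cells (37.0%) somatic markers reached 10 per 10000 UMIs, which left 774 below that limit. Of the 282 premeiotic cells 217 lay below it, and of the 348 FIGLA-positive cells 275. The limit is a share of UMIs, so shallow cells reach it with fewer somatic UMIs. Without such cells in either group the count of genes of the 6 meiotic lists higher against premeiotic cells was 36, beside 35 with them. Over all genes compared it was 650, beside 588. The part of free RNA and of doublets in single genes was not tested.

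Against FIGLA-positive meiotic cells, the early prophase cells differed little. Of 8536 genes compared, 16 were higher (0.187%) and 62 lower (0.726%), with a median log2 ratio of -0.04. In the same 6 lists and that of break signalling 0 genes were higher or lower, and the compared genes had log2 ratios between -0.91 (PRR19) and 0.83 (DMC1). The endings were unequally mixed in the groups, with 180 of the 348 FIGLA-positive cells ending in 1. Ratios within each ending are therefore given for some genes. Values given without them are over both endings and carry this unequal mix.

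**Figure D3:**
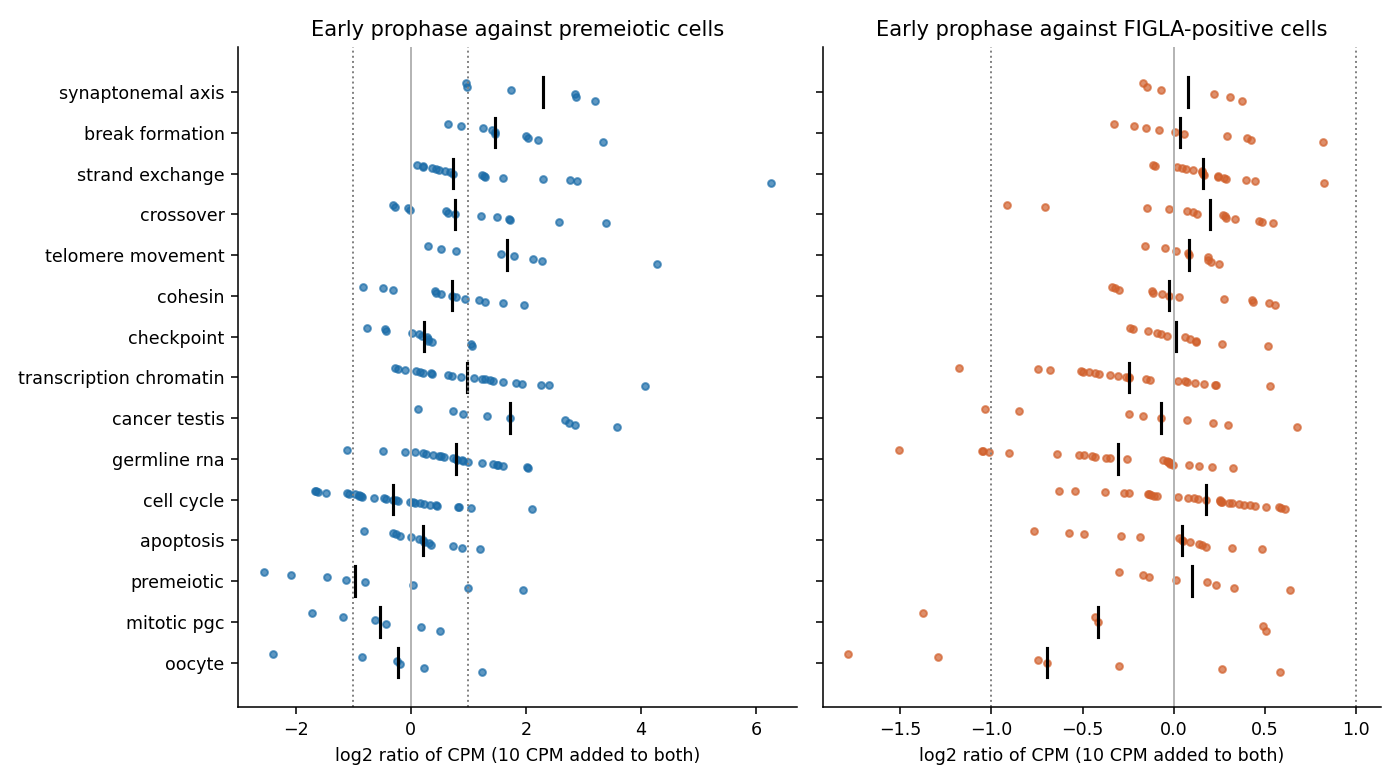
Log2 ratio of CPM after 10 CPM was added (horizontal axes, with different ranges in the panels) for each compared gene of 15 lists (rows, points are genes, black bars are medians), early prophase cells against premeiotic cells (left) and against FIGLA-positive meiotic cells (right), with dotted lines at 2-fold. Meiotic lists lie to the right of 0 in the left panel, with medians of 2.30 for the synaptonemal axis and 1.47 for break formation, and close to 0 in the right panel.

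PRDM9 and DMC1 had higher levels without FIGLA. PRDM9 was at 38.0 CPM against 17.2 (13.5 to 21.5), a ratio of 2.22 (1.70 to 2.92) that was 1.45 and 2.16 within the endings. DMC1 was at 66.9 CPM against 33.4 (28.2 to 39.3), a ratio of 2.00 (1.65 to 2.44) that was 1.35 and 1.95. Neither reached the limit once 10 CPM was added. REC8, which is outside these counts because it chose the premeiotic cells, was at 53.8 CPM against 13.4 (10.2 to 17.4), a ratio of 4.00 (3.02 to 5.39). SPO11 was at 102 against 120 CPM (110 to 131), with ratios of 0.947 and 1.03 in the endings. RAD51AP2 went in opposite directions in the endings, at 3088 CPM against 4453 for barcodes ending in 1 and 2184 against 1270 for those ending in 2.

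The rule's own genes also differed, although both groups passed the same limit. SYCE3 was at 2058 CPM (2023 to 2094) in early prophase cells and 998 CPM (968 to 1028) in FIGLA-positive cells, and it was higher in each ending (2527 against 1716, and 1170 against 632). SYCP1 was at 649 CPM (629 to 669) against 1151 (1120 to 1184), and it was lower in each ending (526 against 1045, and 881 against 1206). SYCP2 and SYCP3 were close, at 1059 against 1044 CPM and 2122 against 1859 CPM.

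The genes lower without FIGLA included oocyte factors, piRNA genes and genes of other kinds. LDHAL6A, a relative of lactate dehydrogenase, was at 10.8 CPM (8.37 to 13.7) against 140 (129 to 152) in FIGLA-positive cells and 983 CPM in oocytes. MX1, an interferon-induced GTPase, was at 26.4 CPM against 159, and ESRP1, a splicing regulator, had 31 UMIs (3.39 to 7.09 CPM) against 58.0 CPM. Within the endings the log2 ratios were -2.29 and -2.36 for LDHAL6A, and -1.55 and -2.18 for MX1. With the synaptonemal limit at 40, the log2 ratios of LDHAL6A and MX1 over both endings moved from -2.85 and -2.21 to -0.55 and -0.04. The count of lower genes moved from 62 to 13. Among 7 compared oocyte genes SOHLH1 and LHX8, transcription factors of early oocytes, were lower. SOHLH1 was at 2.10 CPM (1.12 to 3.58) against 31.8 (26.7 to 37.5), and LHX8 at 10.3 CPM against 39.9. Among 24 compared piRNA and RNA-binding genes, PNLDC1, TDRD1, DDX25 and PLD6 were lower and 0 higher, beside 0.726% and 0.187% of all genes compared. PNLDC1, which trims piRNAs, was at 13.1 CPM against 55.6, a level that was 1.99 and 4.33 times higher in FIGLA-positive cells of the endings. TDRD1 was lower only through barcodes ending in 2, where FIGLA-positive cells had 3.51 times as much, against 1.03 times in those ending in 1. PLD6 went in opposite directions, at 17.0 CPM against 14.4 in barcodes ending in 1 and 51.8 CPM against 96.5 in those ending in 2.

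Among the genes lower without FIGLA, ALKAL2, CIART, CCDC88C, PNLDC1, ZBTB18, ANKRD37 and DND1 completed those with the lowest ratios. DND1, which protects germ cell transcripts, was at 74.5 CPM (67.8 to 81.6) against 209 (195 to 223). TAF7L, a germ cell subunit of the general transcription machinery, was at 25.6 CPM against 70.7, and PRAME, a cancer-testis gene, at 140 CPM against 298. All of these, ESRP1 included, had lower levels in both endings. For ESRP1, ALKAL2, CIART, CCDC88C, PNLDC1, ZBTB18, ANKRD37 and DND1 this was a condition of being named by rank and not a result. ESRP1, ALKAL2, PNLDC1, ZBTB18 and ANKRD37 did not reach the 2-fold limit in barcodes ending in 1. There ESRP1 had a log2 ratio of -0.52 and ALKAL2 of -0.77.

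HIST1H2AA, DERL3, SPC25, GAL3ST1, EGR3 and KISS1 passed the 2-fold limit as higher without FIGLA, and the calls depended on the endings. HIST1H2AA, a germ cell form of histone H2A, led with 122 CPM (114 to 131) against 45.7 (39.5 to 52.5), a ratio of 2.67 that was 2.26 and 1.75 in the endings. DERL3, a protein of the endoplasmic reticulum, was at 241 CPM against 99.9, SPC25, a kinetochore protein, at 63.2 against 22.5, and GAL3ST1, which makes sulfated glycolipids, at 50.8 against 19.5. The log2 ratios within the endings were 0.99 and 0.83 for DERL3, 0.89 and 0.65 for SPC25, and 0.98 and 1.17 for GAL3ST1. EGR3 and KISS1, at 59.6 and 84.3 CPM, were at 389 and 443 CPM in somatic cells. The log2 ratio of EGR3 was 1.66 in barcodes ending in 1 and 0.03 in those ending in 2, and that of KISS1 was 0.50 and 0.43, under the limit in each. A further 9 named genes had higher levels but did not pass, with log2 ratios from 0.90 (PSME1) to 0.996 (RBM3). They were RBM3, ND6, NRDC, DPEP3, CCNB3, FAM9A, CENPX, HIST1H2BA and PSME1. RBM3, a cold-inducible RNA-binding protein, was at 160 CPM against 75.1, HIST1H2BA, a germ cell form of histone H2B, at 101 CPM against 49.4 and DPEP3, a dipeptidase of germ cells, at 412 CPM against 208. Their log2 ratios within the endings were 0.94 and 0.64 for RBM3, 0.51 and 0.24 for HIST1H2BA, and 0.90 and 0.84 for DPEP3. CCNB3, a cyclin of germ cells, was at 245 CPM against 123 with ratios of 1.52 and 1.35 within the endings. The mitochondrial gene ND6, at 290 against 144 CPM, had ratios of 1.27 and 1.43 within the endings.

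Within the early prophase cells, the levels of genes that the rule did not use differed along the synaptonemal sum. The sum was cut into bands of 20 to 40 (396 cells), 40 to 80 (527 cells) and 80 or more (306 cells) per 10000 UMIs, which are ranges of the selecting score and not cell types. Median depths were similar, at 2569.5, 2296 and 2379 UMIs. RAD51AP2 was at 774 CPM (737 to 812) in the lowest band, 3154 in the middle and 5208 (5089 to 5330) in the highest, and the order held in each ending. SPO11 went from 27.5 CPM (21.0 to 35.5) to 129 and 165 (144 to 188), PRDM9 from 13.3 CPM (8.91 to 19.1) to 31.4 and 89.7 (74.6 to 107), and DMC1 from 47.5 to 74.1 and 135 CPM in barcodes ending in 1 and from 26.8 to 43.5 and 55.8 CPM in those ending in 2. CNTD1 went from 44.5 to 167 and 329 CPM and PHF7 from 27.1 to 91.1 and 137 CPM.

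Some genes with higher levels in premeiotic cells ran the other way along the same bands. REC8, which helped to choose the premeiotic cells, was at 130 CPM in the lowest band, 15.9 in the middle and 5.79 (2.50 to 11.4) in the highest. NLRP7 went from 184 CPM (166 to 203) to 47.7 and 23.1, TUBB2B from 97.3 to 24.2 and 8.68 CPM, and MCM4 from 126 to 63.5 and 38.3 CPM. DAZL was level, at 205, 210 and 220 CPM.

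**Figure D4:**
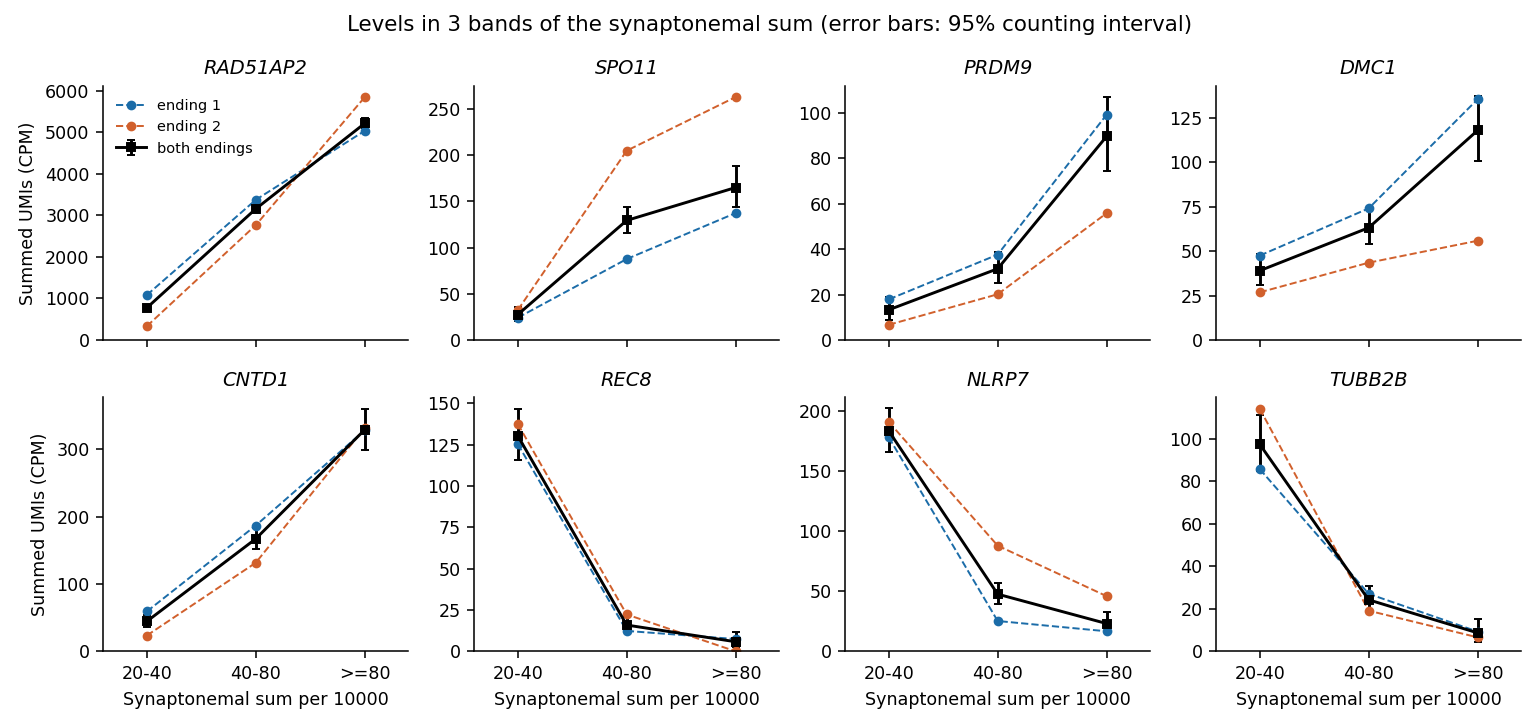
Summed level (vertical axes, CPM, each from 0) of 8 genes in early prophase cells with a synaptonemal sum of 20 to 40, 40 to 80 and 80 or more per 10000 UMIs (horizontal axes), for both endings together (black squares, error bars are 95% counting intervals) and for each ending (blue 1, orange 2). RAD51AP2, SPO11, PRDM9, DMC1 and CNTD1 increase with the sum, and REC8, NLRP7 and TUBB2B decrease, in both endings.

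Transcripts of meiotic entry were detected in a smaller set of early prophase cells, a split that depends on depth. In 179 cells (14.6%) a UMI of STRA8, ZGLP1 or REC8 was found, and these cells were deeper than the rest, with a median of 5199 against 2215 UMIs. They had SPO11 at 34.5 CPM (26.2 to 44.6) against 126 (116 to 137) in the 1050 others, and RAD51AP2 at 1260 against 3339 CPM. RFX6 was at 70.2 CPM (58.1 to 84.1) against 6.85 (4.66 to 9.73), and NLRP7 at 244 against 32.7 CPM. Their median synaptonemal sum was 34.0 per 10000, against 58.3 in the others. Both endings showed these differences for SPO11, with 36.2 against 93.1 CPM and 32.6 against 205 CPM.

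The early prophase cells were also grouped by the synaptonemal gene with the most UMIs in the cell. This is a grouping by counts of the rule's own genes, from a median of 14 UMIs a cell, and does not say which gene is expressed more. SYCE3 led in 483 cells, SYCP3 in 466, SYCP1 in 78 and SYCP2 in 66, and 136 cells had a tie. SYCE3 led in 456 of the 983 cells with barcodes ending in 1 and in 27 of the 246 cells ending in 2, where SYCP3 led in 140 and SYCP1 in 43. Cells led by SYCE3 had more PRDM9, at 54.3 CPM (45.4 to 64.4), than cells led by SYCP1, at 12.2 CPM (3.98 to 28.6), and more DMC1, at 81.1 (70.1 to 93.2) against 31.8 CPM (17.0 to 54.4). Cells led by SYCP1 had more BRDT, at 451 CPM (388 to 521) against 121 (107 to 135), more PHF7, at 154 against 46.1 CPM, and more WDR87, at 265 against 108 CPM. Each of these held within both endings, although PRDM9 rested on 5 UMIs in the cells led by SYCP1.

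**Figure D5:**
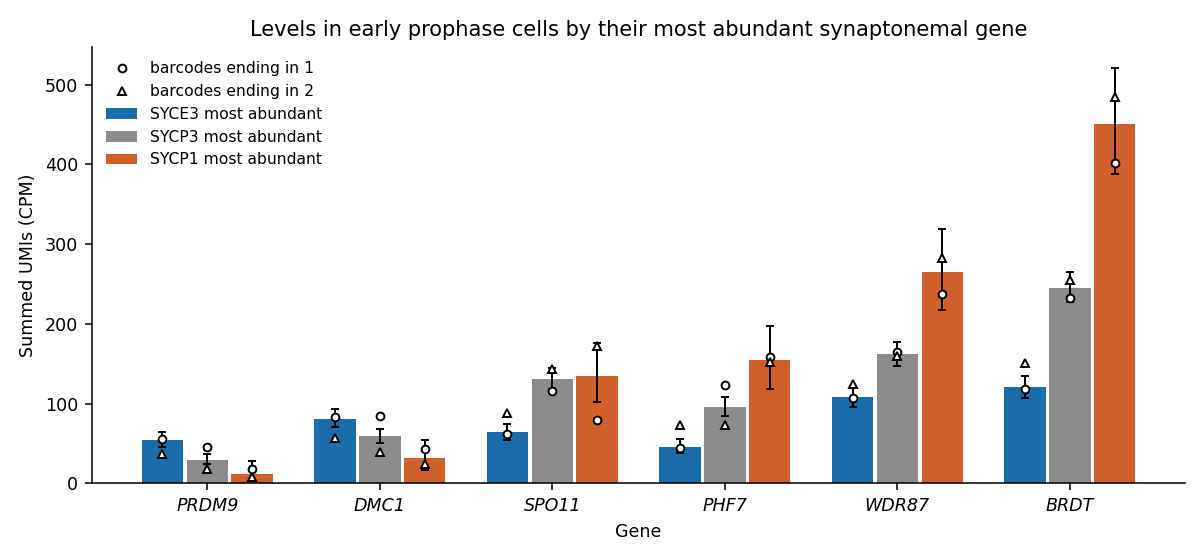
Summed level (vertical axis, CPM) of 6 genes (horizontal axis) in early prophase cells in which SYCE3 (blue, 483 cells), SYCP3 (gray, 466 cells) or SYCP1 (orange, 78 cells) was the most abundant synaptonemal gene, with 95% counting intervals and open circles and triangles for barcodes ending in 1 and 2. Over both endings PRDM9 and DMC1 were highest in cells led by SYCE3, and PHF7, WDR87 and BRDT in cells led by SYCP1.

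The endings as a whole differed in some of these genes too. Early prophase cells with barcodes ending in 1 had SYCE3 at 2527 CPM, PRDM9 at 47.7 and DMC1 at 81.9, against 1170, 19.6 and 38.3 CPM for those ending in 2. Barcodes ending in 2 had more SYCP1 (881 against 526 CPM), more SPO11 (141 against 80.7 CPM), more BRDT (278 against 175 CPM) and more WDR87 (175 against 133 CPM), while PHF7 was at 82.2 against 77.3 CPM. SYCP2 and SYCP3 were close in the endings, at 1029 and 1117 CPM and at 2071 and 2219 CPM. The endings differed in depth as well, and stage, animal and library cannot be told apart between them.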

How the data were processed

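The deposited table held unnormalised counts of UMIs for each gene in each cell. Per the labels the authors made it with Cell Ranger 3.0.2 (Seurat is also named) from 2 libraries of the droplet 3′ kit, on the Macaca_fascicularis_5.0 genome, keeping genes found in 3 or more cells. It listed 18446 genes (15233 by symbol, 3213 by Ensembl identifier) in 20967 cells. A limit of 200 to 3000 genes and one of 10% mitochondrial UMIs were alternatives and not applied in the main analysis, so 222 early prophase cells lay above 3000 detected genes. No doublet caller was run; leaving out the cells with the most UMIs and those rich in somatic markers were alternatives. UMIs were summed over a group's cells and scaled to CPM, with exact Poisson intervals for levels, exact binomial intervals for shares and exact conditional intervals for ratios (95%, scipy 1.17.1, numpy 2.4.6, pandas 2.3.3, Python 3.11.15). Sums of the early prophase cells (4063572 and 2141468 UMIs in the endings) put 3 UMIs, the floor, at 0.483 CPM. The scripts were tested on simulated data. Genes were named when they were markers, when they belonged to a list by function, as examples with the highest levels or ratios, or when among the 15 highest or 10 lowest ratios at 50 CPM or more that went the same way in both endings. Further list members with low or opposite ratios (such as MLH3, RAD21, CASP2 and CHEK2) were named after their values were seen. Results for some genes of the lists are not reported here. The members, gene lists and comparisons were chosen with earlier results of these data known.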

Additional observations from a re-analysis of the deposited data

How the results depend on the processing

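The counts of cells and genes and the log2 ratios of the named genes were recomputed under 15 alternatives, but not the splits by band, leading gene, premeiotic UMI or depth. Of the alternatives, leaving out the cells with HBB at 1% or more was chosen after seeing the data, and the lone library per stage leaves no replicate to leave out. The 1229 early prophase cells became 424 with under 10% mitochondrial UMIs, 718 at 2000 UMIs or more, 774 without cells rich in somatic markers and 246 in barcodes ending in 2. Thinning every cell to 1000 UMIs before the rule was applied gave 1761 cells that passed it but left 33 premeiotic and 141 FIGLA-positive cells. On the full counts only 1630 cells, with or without FIGLA, reached the synaptonemal limit, so some of the 1761 passed only after thinning. The 588 genes higher against premeiotic cells became 896 with under 10% mitochondrial UMIs, 3152 after thinning and 1073 with 1 CPM added in place of 10. The 401 lower genes became 694 with the synaptonemal limit at 40, 1410 after thinning and 908 with 1 CPM added. Against FIGLA-positive cells the 16 higher genes became 45 in cells with 200 to 3000 genes, 44 with under 10% mitochondrial UMIs, 5 at the limit of 40, 689 after thinning and 84 with 1 CPM added. The 62 lower genes there became 13 at the limit of 40, 358 after thinning, 38 by the mean of single-cell CPM, 23 in barcodes ending in 1 and 226 with 1 CPM added. The cause of these changes was not tested. Thinning left fewer UMIs, whereas 1 CPM added and the mean of single-cell CPM used the same cells as the main analysis. The count of genes of the 6 meiotic lists higher against premeiotic cells stayed between 34 and 39 under all alternatives, but the background count did not. After thinning it was 36, beside 3152 higher among all genes compared, and with 1 CPM added 39, beside 1073. In the main analysis it was 35, beside 588. Genes named by rank in a comparison had to go the same way in both endings. Their sign within each ending was thus fixed in advance for that comparison. The filter on low values and the CPM added cannot change a sign either. With these values included, 480 of 480 alternative values of named genes kept their sign against premeiotic cells, with 461 of 465 still 2-fold. Calls were lost after thinning for DMC1 (log2 ratio from 2.30 to 0.60), RFX6 (from -2.56 to -0.86) and SMC1B (from 1.29 to 0.80). In barcodes ending in 2 the call for XAGE3 was lost (from 3.04 to 0.51). Against FIGLA-positive cells 431 of 435 kept their sign, the others being RAD51AP2 (3 values) and SPO11 (1 value), but only 196 of 240 were still 2-fold. There ALKAL2 went from -1.81 to -0.13 and MX1 from -2.21 to -0.04 at the limit of 40, and EGR3 from 1.03 to 0.03 in barcodes ending in 2. No paired analysis was possible because each stage had 1 library.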

Other observations

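Genes of cell death and of the stress response gave further values in the early prophase cells. Of 13 compared genes of cell death and survival, BCL2L1, which protects cells from death, was higher than in premeiotic cells at 95.6 CPM (88.0 to 104) against 36.2 (29.7 to 43.6), and 0 were lower. This is 1 of 13 genes, beside 6.77% of all genes compared. APAF1, the scaffold that activates caspase 9, was at 46.1 CPM against 20.2, and CASP2 at 60.3 CPM against 74.0. Against FIGLA-positive cells 0 of 14 were higher or lower, where only 0.187% of all genes compared were higher and 0.726% lower. The checkpoint kinase CHEK2 was at 12.2 CPM (9.65 to 15.3) in early prophase cells and 27.9 CPM (22.2 to 34.5) in premeiotic cells. TP63 was at 4.51 CPM in early prophase cells against 66.5 CPM in oocytes, nearly all of which had barcodes ending in 2.

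In the list of immediate early and heat shock genes, 4 of 13 compared were higher than in premeiotic cells (EGR1, EGR3, FOSB and ATF3) and HSPH1 was lower. Of all genes compared, 6.77% were higher and 4.62% lower. FOS was at 323 CPM in early prophase cells, 179 CPM in premeiotic cells and 4016 CPM in somatic cells, and HSPA8 at 942 CPM against 1694 in premeiotic cells. Of 4 compared endothelial markers, 1 was lower than in FIGLA-positive cells, VWF, with a log2 ratio of -1.06, beside 0.726% of all genes compared. In that list 2 of the 4 had ratios above 0, and the median log2 ratio was -0.14. All endothelial markers summed to 186 CPM against 189 CPM in FIGLA-positive cells.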
